A study of Rattus norvegicus with 20 samples.

Results

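The dentate gyrus of rats was compared between 30 d and 7 d after status epilepticus (SE). Of the 20 arrays in the series, one per rat, the 10 from stimulated animals carry this comparison (5 at 30 d and 5 at 7 d), and the 10 from sham-operated animals (5 at 30 d and 5 at 7 d) show what changed over the same time without SE. All animals were adult male Sprague-Dawley rats with an electrode implanted in the left lateral amygdala. Stimulated animals, at 30 d and at 7 d, received electrical stimulation that evoked SE, which was stopped with diazepam. The paper reports spontaneous seizures in all of them. The median number it gives was lower at 7 d, with a range that starts at none, than at 30 d. Sham-operated animals of both times carried the electrode and were never stimulated. Total RNA came from the left dentate gyrus as a whole, so fewer cells of a type and less RNA per cell cannot be told apart. Rats killed at 30 d were also older, and array batches are not given in the sources used here. Within the stimulated rats, time, age, number of seizures and any batch therefore cannot be told apart.

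The dentate gyrus is the entry gate of the hippocampus, and its granule cells send mossy fibre axons to the hilus and CA3. After SE, microglia (the resident immune cells of the brain) and astrocytes react, newborn granule cells are produced in excess, and the extracellular matrix is remodelled. Metallothioneins bind zinc and copper and follow cell stress, and chaperones of the endoplasmic reticulum (ER) fold secreted and membrane proteins.

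The granule cell marker C1ql2 lay between 8.74 and 9.82 (log2 expression) in stimulated rats at 30 d and between 8.81 and 9.67 at 7 d, against 9.49 to 9.78 in sham rats at 30 d and 9.48 to 9.85 at 7 d. The values of 8.74 and 8.81 belonged to rat 5 of each stimulated group. Other granule cell markers did not all follow. In these rats Prox1 measured 9.47 and 9.64, the latter the highest of its group. Calb1 measured 7.70 and 8.0, with 7.70 the lowest of its group, and Dsp 5.86 and 5.49. Ttr, a choroid plexus transcript, was high in both (6.64 and 6.62) and in rat 2 at 7 d (6.15). Folr1 (4.85 and 4.92) and Kl (3.88 and 3.82), also of choroid plexus, did not stand apart. Wfs1, a marker of CA1 pyramidal cells, was highest in stimulated rats 5 and 4 at 30 d (9.25 and 8.64) and in sham rat 2 at 30 d (8.81). The mean level of 18 CA1 and CA3 genes was 6.43, 6.17 and 6.14 in these rats. It was 6.24 in sham rat 1 at 30 d and 6.17 in sham rat 3 at 7 d, which had lower Wfs1 (7.51 and 7.79). Counts are therefore also given without the arrays with low C1ql2 and without those with high Wfs1, each picked on that 1 marker.

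Across 15800 probe sets of 14589 genes, 2138 probe sets (13.5%) differed between stimulated rats at 30 d and at 7 d at an adjusted p below 0.05 (limma, Benjamini-Hochberg adjustment over all probe sets). Of these, 1210 (7.66%) were higher at 30 d and 928 (5.87%) were lower. Centring the arrays at a common median gave 1528 higher and 549 lower calls. Most changes were small. The median was 0.35 among the higher and -0.27 among the lower calls on the log2 scale, and 13 called probe sets moved by more than 1. The stimulated groups did not overlap at 1410 probe sets (8.92%), of which 1082 were called. Below, a change is the mean at 30 d minus the mean at 7 d on the log2 scale with its standard error, and rats are given in the order 1 to 5 of their group. Where a gene missed the threshold in some of the 10 fits that each left out 1 stimulated array, the number of these fits is given as lost calls. Gene lists were chosen with earlier results of these data known, so their counts beside the shares of all probe sets are descriptions and not tests.

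Sham rats mostly changed in the same direction as stimulated rats. No probe set passed in sham rats at 30 d against 7 d (0 of 15800, 0%, limma), although 2107 (13.3%) had an unadjusted p below 0.05. With array weights, 1394 probe sets passed in sham rats (902 higher, 492 lower), and 3169 in stimulated rats. Of the 2138 probe sets called in stimulated rats, 2032 (95.0%) had the same sign in sham rats, against 72.9% of all probe sets, and 910 had it with an unadjusted p below 0.05. With the opposite sign, 0 reached that threshold. The median sham change was 0.19 over the probe sets that rose in stimulated rats and -0.12 over those that fell. These probe sets were picked by their change in stimulated rats, which by itself favours a smaller size in sham rats. Across the 15800 probe sets, which share arrays within each treatment and are not independent, the changes in stimulated and in sham rats correlated with a Pearson r of 0.73 and a Spearman rho of 0.67. No probe set passed the test of the difference between the time changes (0 of 15800, 0%, limma, smallest adjusted p = 0.399), and 682 (4.32%) had an unadjusted p below 0.05. No gene below was therefore shown to change with time differently in stimulated and sham rats after adjustment, and its sham change stands beside it.

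**Figure D1:**
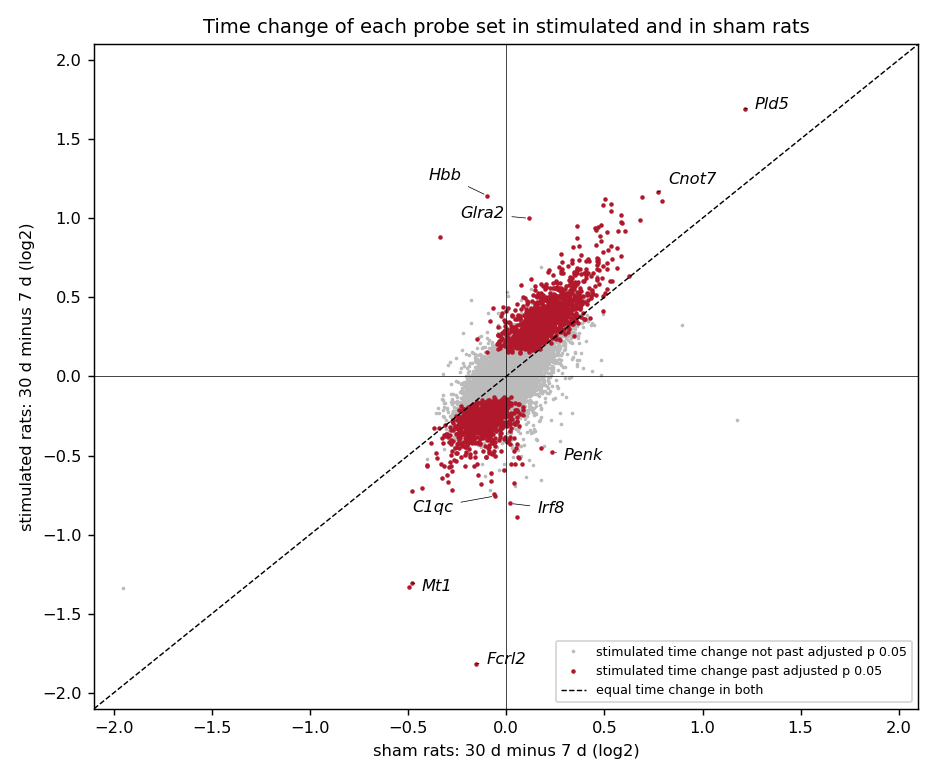
Each point is a probe set, with the 30 d minus 7 d change (log2) in stimulated rats on the vertical axis and that in sham rats on the horizontal axis, and red points passed an adjusted p of 0.05 in stimulated rats. The dashed line marks equal change, and the cloud is drawn out in its direction (r = 0.73), while Fcrl2 (-1.82 in stimulated and -0.15 in sham rats) and Hbb (1.14 and -0.10) lie close to a sham change of 0.

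One pattern ran through stimulated and sham arrays alike. The main axis of variation among sham rats of the same group held 36.9% of their within-group variation. Stimulated rats scored 1.14 to 7.88 on it at 30 d and -18.2 to 2.07 at 7 d, against 1.1 to 18.3 in sham rats at 30 d and -19.2 to 9.89 at 7 d. Sham rats 2 and 4 at 7 d (8.71 and 9.89) scored above every stimulated rat. With the score as a covariate, 26 probe sets (0.165%) passed in stimulated rats, 14 higher and 12 lower, and 23 of them were among the 2138. Of the genes named below, Fcrl2, Mt1, Cdk6, Cdh4, Cyb561, Penk, Npy1r, Sorcs3, Htr1a, Tm4sf1, Bcl2 and Tgfb2 kept their call with the covariate and the other called ones lost it. Of 39 genes with values given rat by rat, 27 lost their call, and 16 of these kept a change within 1.5 times of that without the covariate. Hbb, for example, changed by 1.11 (adjusted p = 0.0645) and Mcm2 by -0.27 (adjusted p = 0.0874), close to their changes without it. The part of this score in the time change was not tested further. The count also moved with single arrays. Without rat 5, 4 or 2 of the 7 d group it was 876, 925 or 1256, and without rat 3, 4 or 1 of the 30 d group it was 1109, 1264 or 1370. Without the 2 arrays with low C1ql2 it was 342, and without the 3 with high Wfs1 it was 72. With each of the 10 stimulated arrays left out in turn, 700 probe sets (424 higher, 276 lower) were called every time.

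**Figure D2:**
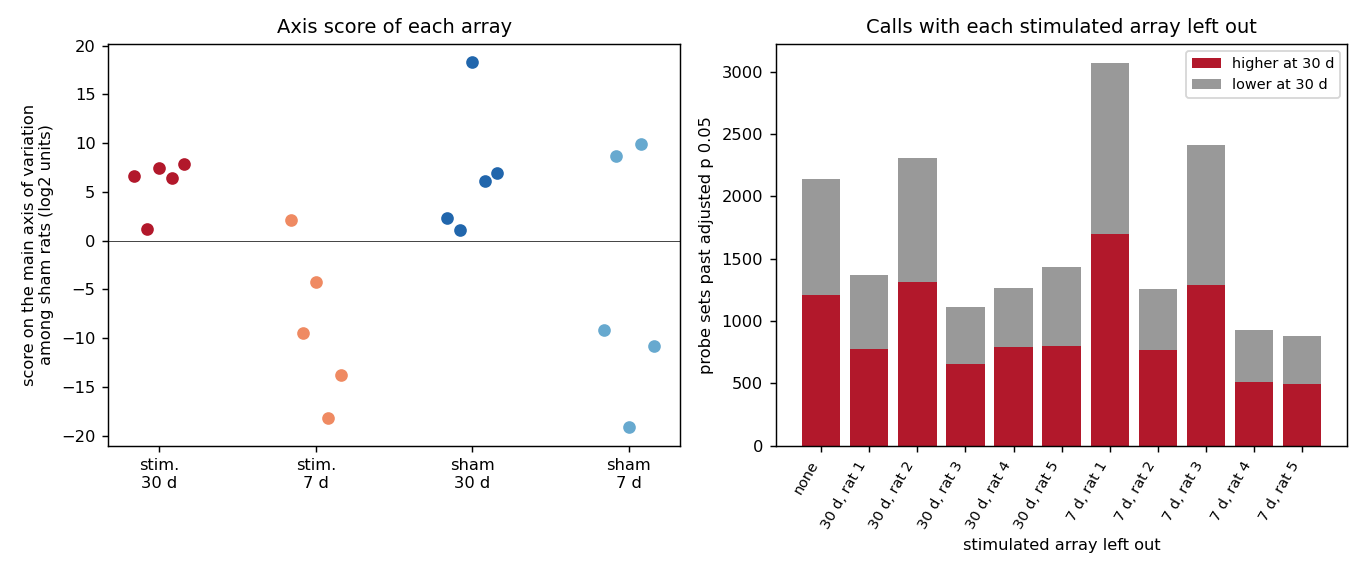
The left panel gives the score of each array on the main axis of variation among sham rats, by group, and the right panel stacks the number of probe sets past an adjusted p of 0.05 for stimulated 30 d minus 7 d with each stimulated array left out, higher calls in red and lower calls in grey. The 30 d stimulated rats lie between 1.14 and 7.88 and the 7 d ones between -18.2 and 2.07, and the counts range from 876 to 3068.

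Single genes of microglia, complement and the interferon response fell. Fcrl2, a microglial Fc receptor-like gene with the RefSeq synonym Fcrls, had the largest fall among called probe sets. It measured 5.79, 6.14, 5.21, 4.53 and 5.19 in stimulated rats at 30 d, against 6.89, 6.88, 6.85, 6.91 and 8.40 at 7 d. The groups did not overlap, and the change was -1.82 ± 0.26 (adjusted p = 0.00123). Sham rats measured 4.80 to 5.02 at 30 d and 4.81 to 5.16 at 7 d, a change of -0.15 (unadjusted p = 0.564), with an unadjusted p = 0.000177 for the difference (adjusted p = 0.664). Stimulated rats differed from sham rats by 0.46 (adjusted p = 0.549) at 30 d, and at 7 d by 2.12 (adjusted p = 5.21e-05). Fcrl2 kept its call with the axis score as a covariate (-1.73, adjusted p = 0.0218).

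C1qc, a chain of the complement initiator C1q, measured 6.32, 6.43, 5.97, 5.82 and 6.26 in stimulated rats at 30 d, against 6.68, 6.82, 6.56, 6.51 and 8.005 at 7 d. Every 30 d value lay below every 7 d value, with rat 5 at 7 d far above the rest. The change was -0.76 ± 0.19 (adjusted p = 0.0161), against -0.06 in sham rats (unadjusted p = 0.774), with an unadjusted p = 0.0176 for the difference. Without rat 5 at 7 d, C1qc changed by -0.48 (adjusted p = 0.0175). C1qc was the 1 called gene of 9 measured complement genes, whose median change was -0.30 in stimulated and 0.0055 in sham rats. Of all probe sets 13.5% were called.

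Among 20 measured genes of the interferon response, 4 fell and 0 rose, beside 5.87% and 7.66% of all probe sets. Of all probe sets 56.9% had a lower mean at 30 d, and of these 20 genes 19 did. Their median change was -0.32 in stimulated and 0.0081 in sham rats, against -0.02 and -0.0023 over all probe sets. Irf7, a transcription factor of the antiviral response, measured 4.93, 5.21, 4.74, 4.58 and 5.02 in stimulated rats at 30 d, against 5.21, 5.34, 5.47, 5.08 and 5.92 at 7 d. Its groups overlapped, and it changed by -0.51 ± 0.13 (adjusted p = 0.0172, 1 lost call), against 0.06 in sham rats (unadjusted p = 0.663), with an unadjusted p = 0.00592 for the difference. Irf8, a factor that microglia need, measured 5.61, 6.36, 5.20, 5.14 and 5.18 in stimulated rats at 30 d, against 5.91, 6.29, 5.89, 5.93 and 7.49 at 7 d, with rat 2 high at 30 d and rat 5 high at 7 d. It changed by -0.80 ± 0.24 (adjusted p = 0.0348, 6 lost calls), against 0.02 in sham rats (unadjusted p = 0.945), with an unadjusted p = 0.0273 for the difference. Without rat 5 at 7 d, Irf8 changed by -0.50 (adjusted p = 0.0864). Mx2 (-0.72, sham -0.28, unadjusted p = 0.251, 6 lost calls) and Irf9 (-0.43, sham -0.09, unadjusted p = 0.549, 8 lost calls), both antiviral genes, also fell. These calls depended on single arrays, as did the count over all probe sets. Without rat 5 at 7 d, 0 of the 20 genes passed, and without rat 1 at 7 d, 12 did. Of all 15800 probe sets, 876 and 3068 passed in these fits.

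Of 17 homeostatic microglia genes, 2 fell and 0 rose (5.87% and 7.66% of all probe sets did), with a median of -0.30 against 0.07 in sham rats. They were Fcrl2 and Bin2, a membrane-bending protein (-0.30, sham -0.007, unadjusted p = 0.934, 4 lost calls). P2ry12, the purine receptor that guides microglial processes, measured 7.44, 7.95, 7.11, 7.01 and 7.32 in stimulated rats at 30 d, against 7.58, 7.76, 7.76, 7.44 and 8.32 at 7 d. Its groups overlapped and it did not pass (-0.41, adjusted p = 0.0707), against 0.28 in sham rats (unadjusted p = 0.0781), with an unadjusted p = 0.00387 for the difference. It differed from sham rats by 0.60 (adjusted p = 0.0388) at 30 d, and at 7 d by 1.29 (adjusted p = 4.04e-05). The mean level of the 17 genes was 6.10 to 6.97 in stimulated rats at 30 d and 6.49 to 7.25 at 7 d, against 5.89 to 6.07 in sham rats at 30 d and 5.87 to 5.996 at 7 d. The stimulated ranges overlapped each other, and both lay above both sham ranges. Of 17 phagocytic and lysosomal genes 0 were called (median -0.13, sham 0.01). Of 17 antigen presentation genes 1 fell, RT1-DMb, which helps load peptides (-0.61, adjusted p = 0.0238, sham -0.08, unadjusted p = 0.649, 4 lost calls).

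Metallothionein 1 had the largest falls after Fcrl2 among called probe sets. The brighter of its 2 probe sets measured 8.32, 8.66, 8.21, 8.25 and 9.33 in stimulated rats at 30 d, against 10.41, 9.90, 9.84, 9.81 and 9.33 at 7 d. Rat 5 of each group lay at the edge of its group, and the groups only just failed to overlap. The change was -1.31 ± 0.20 (adjusted p = 0.00174) and, in the other probe set of Mt1, -1.33 ± 0.20 (adjusted p = 0.00182). Sham rats had the same sign, with -0.48 (unadjusted p = 0.0235) and -0.50 (unadjusted p = 0.0229), and the differences had an unadjusted p of 0.00716 and 0.00845. Both probe sets kept their call with the axis score as a covariate (adjusted p = 0.00484). Metallothionein genes are close copies, so signal from other family members cannot be told apart.

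The stretch upstream of Mt1 is shown because the gene fell so far and because metallothioneins are switched on through metal response elements. In the RefSeq promoter (build GRCr8, chr19:10833004-10833171, minus strand), capitals mark 6 matches to TGCACNC or TGCGCNC, read on both strands. At least 1 match occurred in the 250 bases before the start in 21.2% of all 27457 promoters, and a match is not a bound site.
Mt1: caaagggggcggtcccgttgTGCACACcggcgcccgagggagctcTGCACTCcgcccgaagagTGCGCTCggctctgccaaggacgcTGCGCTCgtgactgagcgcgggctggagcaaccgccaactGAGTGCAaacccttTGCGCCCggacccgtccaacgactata

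Some genes of the cell cycle fell. Of 22 genes of the list 4 were called, and Gadd45a and Cdk6 stand outside it. Gadd45a, a growth arrest and DNA damage gene, measured 4.77, 4.79, 4.61, 4.38 and 4.76 in stimulated rats at 30 d, against 4.90, 5.38, 5.12, 5.56 and 5.65 at 7 d. It changed by -0.66 ± 0.12 without overlap (adjusted p = 0.00425), against -0.08 in sham rats (unadjusted p = 0.523), with an unadjusted p = 0.00211 for the difference. Cdk6, a kinase that drives cells into the cycle, measured 5.32, 5.25, 5.23, 5.20 and 5.09 in stimulated rats at 30 d, against 5.61, 5.70, 5.56, 5.77 and 5.80 at 7 d. It changed by -0.47 ± 0.06 without overlap (adjusted p = 0.00103), against -0.06 in sham rats (unadjusted p = 0.313), with an unadjusted p = 0.000135 for the difference. Of 22 cell cycle and DNA replication genes, 4 fell and 0 rose (5.87% and 7.66% of all probe sets did), with a median of -0.09 against -0.03 in sham rats. Mcm2, a subunit of the replicative helicase, measured 5.02, 5.15, 5.02, 4.86 and 5.08 in stimulated rats at 30 d, against 5.23, 5.38, 5.30, 5.32 and 5.44 at 7 d. Hmgb2, a chromatin protein of dividing progenitors, measured 6.71, 6.66, 6.61, 6.54 and 6.80 in stimulated rats at 30 d, against 6.86, 6.91, 7.11, 7.21 and 7.19 at 7 d. Neither gene overlapped between times. Mcm2 changed by -0.31 (adjusted p = 0.00425), against -0.05 in sham rats (unadjusted p = 0.337). Hmgb2 changed by -0.39 (adjusted p = 0.0044), against -0.06 in sham rats (unadjusted p = 0.425). Mcm2 differed from sham rats by 0.03 (adjusted p = 0.919) at 30 d, and at 7 d by 0.28 (adjusted p = 0.00259). Hmgb2 did so by 0.09 (adjusted p = 0.691) at 30 d, and at 7 d by 0.43 (adjusted p = 0.000821). The mitotic genes Ube2c (-0.29, sham -0.09, unadjusted p = 0.299, 3 lost calls) and Nusap1 (-0.14, sham -0.02, unadjusted p = 0.618, 9 lost calls) were the other calls. Sham values of Nusap1 ran only from the background of 3.69, to which low values were raised, up to 3.87. Its sham change is therefore compressed.

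Of 28 genes of newborn granule neurons and their progenitors, 5 fell and 0 rose, with a median of -0.13 against -0.0032 in sham rats. Draxin, an axon guidance factor, measured 4.50, 4.74, 4.45, 4.36 and 4.84 in stimulated rats at 30 d, against 4.79, 4.95, 5.19, 5.04 and 5.48 at 7 d. It overlapped slightly and changed by -0.51 ± 0.10 (adjusted p = 0.00612), against -0.16 in sham rats (unadjusted p = 0.128), with an unadjusted p = 0.0216 for the difference. Sox4, a transcription factor of young neurons (-0.41, sham -0.18, unadjusted p = 0.149, 6 lost calls), Gap43, a growth cone protein (-0.26, sham -0.06, unadjusted p = 0.453, 7 lost calls), and Hes6, a neurogenic factor (-0.22, sham -0.03, unadjusted p = 0.711, 7 lost calls), also fell. Leaving out 1 stimulated array at a time gave between 1 and 7 falls in this list, and between 381 and 1367 over all 15800 probe sets. Of 36 axon guidance genes, 5 fell and 1 rose, beside 5.87% and 7.66% of all probe sets, among them Plxna2, a semaphorin receptor (-0.22, sham -0.05, unadjusted p = 0.297), and Epha4, an ephrin receptor (0.24, sham 0.08, unadjusted p = 0.252, 6 lost calls).

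Of 31 genes of the extracellular matrix and its enzymes, 6 fell and 1 rose, beside 5.87% and 7.66% of all probe sets. Sparc, a collagen-binding matrix protein, measured 10.17, 10.17, 9.95, 9.96 and 10.28 in stimulated rats at 30 d, against 10.31, 10.56, 10.37, 10.57 and 10.82 at 7 d. Loxl1, which crosslinks elastin, measured 6.68, 6.71, 6.63, 6.75 and 6.66 in stimulated rats at 30 d, against 6.91, 7.39, 6.96, 7.16 and 7.36 at 7 d. In both genes all 30 d rats lay below all 7 d rats. Sparc changed by -0.42 ± 0.10 (adjusted p = 0.0107), against -0.07 in sham rats (unadjusted p = 0.449), with an unadjusted p = 0.0179 for the difference. Loxl1 changed by -0.47 ± 0.10 (adjusted p = 0.00765), against -0.12 in sham rats (unadjusted p = 0.247), with an unadjusted p = 0.0187 for the difference. Mmp2, a gelatinase, fell (-0.28, sham -0.05, unadjusted p = 0.465), and Plat, the tissue plasminogen activator, rose (0.40, sham 0.25, unadjusted p = 0.0136). The median of the list was -0.04 in stimulated and -0.04 in sham rats.

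**Figure D3:**
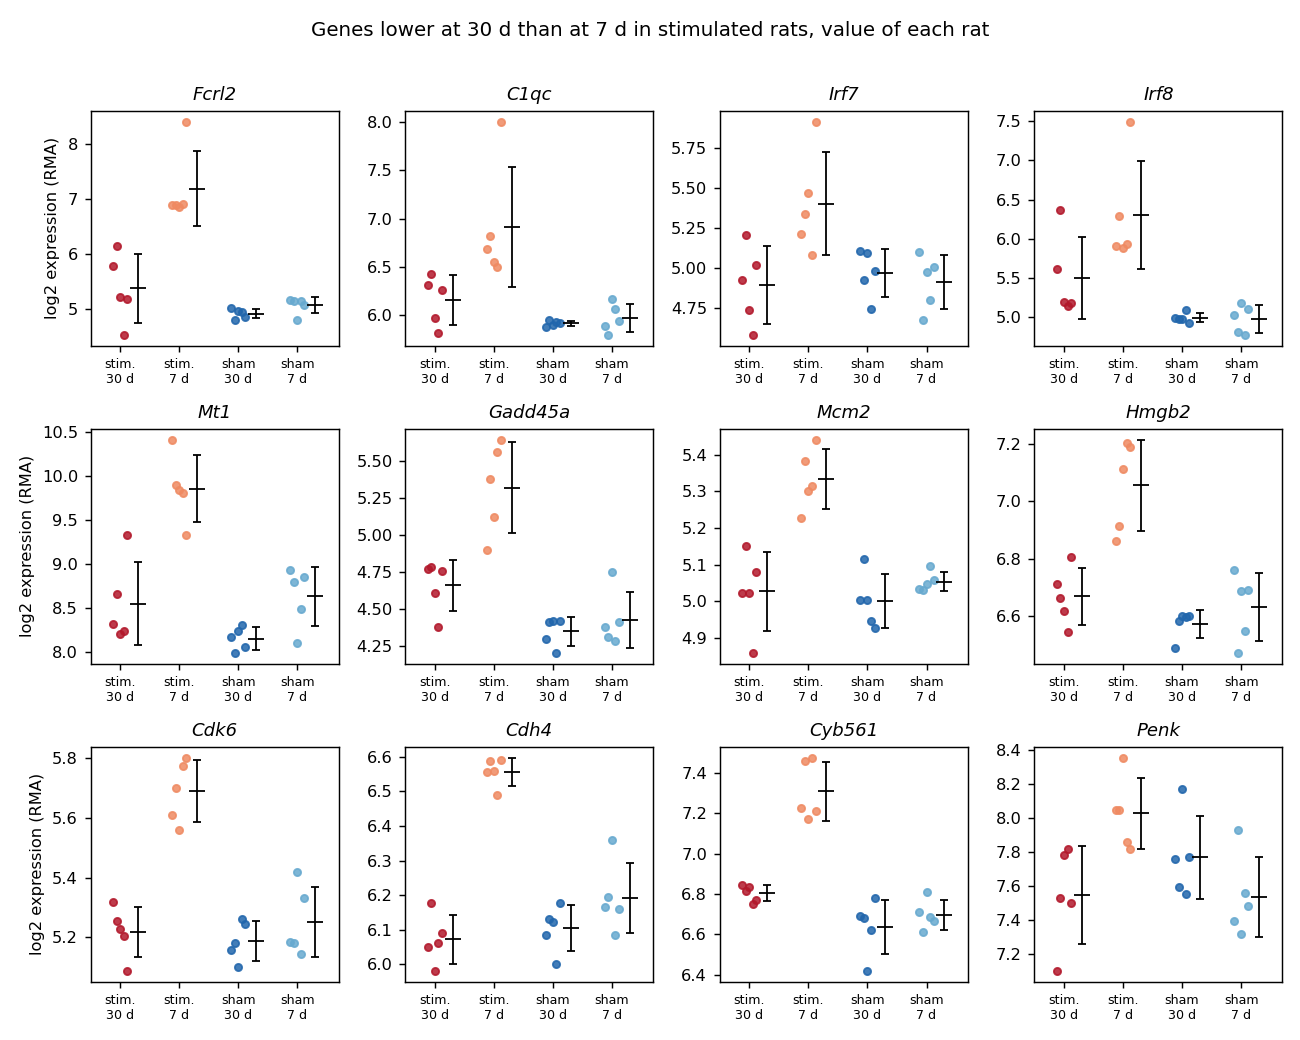
Log2 expression of 12 genes that were lower at 30 d than at 7 d in stimulated rats, with a point for each rat and, beside the points, a bar for the mean and SD (n = 5 per group), stimulated groups left of sham groups. Rat 5 at 7 d is the high point of Fcrl2 (8.40), C1qc (8.005) and Irf8 (7.49).

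The smallest p for the difference between the time changes belonged to Cdh4, a cadherin of the nervous system. It measured 6.05, 6.18, 5.98, 6.06 and 6.09 in stimulated rats at 30 d, against 6.56, 6.59, 6.56, 6.49 and 6.59 at 7 d, while sham rats lay at 6.0 to 6.18 at 30 d and 6.08 to 6.36 at 7 d. Stimulated rats at 7 d stood above the other 3 groups without overlap. Cdh4 changed by -0.48 ± 0.05 (adjusted p = 0.000106, the smallest of the comparison), against -0.09 in sham rats (unadjusted p = 0.105), with an unadjusted p = 2.53e-05 for the difference (adjusted p = 0.399). Cyb561, an ascorbate-regenerating cytochrome of secretory vesicles, measured 6.84, 6.81, 6.83, 6.75 and 6.77 in stimulated rats at 30 d, against 7.22, 7.46, 7.17, 7.47 and 7.21 at 7 d. It changed by -0.50 ± 0.07 without overlap (adjusted p = 0.00103), against -0.06 in sham rats (unadjusted p = 0.394), with an unadjusted p = 0.000139 for the difference. Anxa7, a calcium-dependent membrane-binding annexin, measured 6.62, 6.66, 6.64, 6.61 and 6.61 in stimulated rats at 30 d, against 6.87, 7.04, 6.73, 6.85 and 6.86 at 7 d. It changed by -0.24 (adjusted p = 0.00713), against 0.07 in sham rats (unadjusted p = 0.166), with an unadjusted p = 0.00021 for the difference. With the axis score as a covariate, Cdh4 and Cyb561 kept their call (adjusted p = 0.00307 and 0.0218) and Anxa7, at -0.27, did not (adjusted p = 0.0539).

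Neuropeptide and receptor genes of neurons moved in single cases. Penk, the enkephalin precursor, measured 7.10, 7.53, 7.78, 7.82 and 7.50 in stimulated rats at 30 d, against 8.05, 8.05, 8.35, 7.86 and 7.82 at 7 d, with a bare separation of the groups. It changed by -0.48 ± 0.14 (adjusted p = 0.0285, 4 lost calls), against 0.23 in sham rats (unadjusted p = 0.11), with an unadjusted p = 0.0016 for the difference. Penk was the 1 called gene among 23 neuropeptides and granins. Npy1r, a receptor of neuropeptide Y, Sorcs3, a sorting receptor of neurons, and Htr1a, the serotonin 1A receptor, were chosen after their values were seen. Npy1r measured 5.83, 5.53, 5.999, 5.67 and 5.66 in stimulated rats at 30 d, against 6.19, 6.22, 6.09, 6.25 and 6.38 at 7 d. It changed by -0.49 ± 0.09 without overlap (adjusted p = 0.00425), against -0.07 in sham rats (unadjusted p = 0.418). Sorcs3 measured 6.97, 6.93, 6.93, 7.04 and 6.94 in stimulated rats at 30 d, against 7.63, 7.47, 7.35, 7.25 and 7.05 at 7 d. It changed by -0.39 ± 0.09 (adjusted p = 0.0112), against 0.04 in sham rats (unadjusted p = 0.65). Npy1r differed from sham rats by -0.36 (adjusted p = 0.0362) at 30 d, and at 7 d by 0.06 (adjusted p = 0.805), and Sorcs3 by -0.46 (adjusted p = 0.0081) at 30 d, and at 7 d by -0.03 (adjusted p = 0.907). Htr1a rose by 0.42 (adjusted p = 0.00675), with a sham change of 0.00056 (unadjusted p = 0.995). Of 23 genes of GABA interneurons, 3 fell and 0 rose, beside 5.87% and 7.66% of all probe sets. The 3 were Penk, Slc32a1, the vesicular GABA transporter (-0.36, sham -0.22, unadjusted p = 0.0552, 6 lost calls), and Nr2f2, a factor of a class of these neurons (-0.30, sham -0.11, unadjusted p = 0.19, 4 lost calls).

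Several large falls were accompanied by sham changes of the same sign. Dusp4, a phosphatase that ends MAP kinase signals (-0.56, sham -0.40, unadjusted p = 0.00135), Snrk, a kinase (-0.57, sham -0.41, unadjusted p = 0.00184), and Bcl6, a transcriptional repressor (-0.57, sham -0.32, unadjusted p = 0.00211), were among them. So were Sf3b5, a splicing factor subunit (-0.72, sham -0.48, unadjusted p = 0.00805), and Rpl24, a ribosomal protein (-0.71, sham -0.43, unadjusted p = 0.0207). The unadjusted p for the difference was between 0.062 and 0.331 in these 5. Lbh, a transcriptional regulator (-0.56, sham -0.16, unadjusted p = 0.112), and the histone gene Hist1h4b (-0.56, sham -0.21, unadjusted p = 0.112) were further large falls among called probe sets without overlap.

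Beta globin and a red cell enzyme rose. Hbb, a beta globin, measured 8.03, 8.44, 8.42, 8.37 and 8.85 in stimulated rats at 30 d, against 6.93, 7.86, 7.003, 7.22 and 7.39 at 7 d, while sham rats spanned 7.34 to 8.25 at 30 d and 7.39 to 8.43 at 7 d. It rose by 1.14 ± 0.20 without overlap (adjusted p = 0.00382), against -0.10 in sham rats (unadjusted p = 0.634), with an unadjusted p = 0.000253 for the difference. It differed from sham rats by 0.53 (adjusted p = 0.244) at 30 d, and at 7 d by -0.70 (adjusted p = 0.0356). Alas2, the haem synthesis enzyme of red cells, measured 4.91, 4.95, 5.09, 5.19 and 5.16 in stimulated rats at 30 d, against 4.47, 4.84, 4.63, 4.64 and 4.97 at 7 d, and rose by 0.35 (adjusted p = 0.0124), against -0.08 in sham rats (unadjusted p = 0.324). With Hbb-b1 (0.88, sham -0.34, unadjusted p = 0.227, 6 lost calls), 3 of 7 measured blood genes rose and 0 fell, while 3 of the 7 had a lower mean at 30 d. Of all probe sets 7.66% rose and 5.87% fell. The median change of the list was 0.03 in stimulated and -0.07 in sham rats. The globin genes are close copies whose signals cannot be told apart. The mean level of the 7 genes was 5.43 to 5.73 in stimulated rats at 30 d and 5.10 to 5.52 at 7 d, against 5.22 to 5.43 in sham rats at 30 d and 5.28 to 5.53 at 7 d. The part of residual blood in these rises was not tested.

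Several ER chaperones rose. Hspa5 (BiP), the main ER chaperone, measured 10.15, 10.14, 10.15, 10.15 and 10.24 in stimulated rats at 30 d, against 9.93, 9.92, 9.71, 9.62 and 9.65 at 7 d. It rose by 0.40 ± 0.07 without overlap (adjusted p = 0.00425), against 0.19 in sham rats (unadjusted p = 0.0144), with an unadjusted p = 0.0542 for the difference. Calr, a calcium-binding ER chaperone, measured 10.10, 9.97, 9.89, 10.03 and 10.11 in stimulated rats at 30 d, against 9.80, 9.72, 9.60, 9.58 and 9.72 at 7 d. It rose by 0.33 ± 0.07 without overlap (adjusted p = 0.00675), against 0.11 in sham rats (unadjusted p = 0.117), with an unadjusted p = 0.0284 for the difference. Pdia4, a disulphide isomerase (0.31, sham 0.21, unadjusted p = 0.0013), and Hsp90b1, the ER member of the HSP90 family (0.30, sham 0.21, unadjusted p = 0.00538), rose too. In all, 7 of 23 heat shock and ER stress genes rose and 1 fell (7.66% and 5.87% of all probe sets did), with a median of -0.00079 against 0.03 in sham rats. With the axis score as a covariate 0 of the 23 passed, and 0 passed without the 3 arrays with high Wfs1. Of all 15800 probe sets, only 26 and 72 passed in these fits. Without these arrays Hspa5 still changed by 0.38 (adjusted p = 0.0597) and Calr by 0.30 (adjusted p = 0.0719), and with the covariate by 0.32 and 0.22.

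The promoters of 3 of these chaperones are shown because they carry the ER stress element, CCAAT and CCACG separated by 9 bases, read on both strands. The element occurred in 21 of 27457 RefSeq promoters (0.0765%, 250 bases before the start, build GRCr8). Of 20 measured list members with a promoter, 5 held it (Hspa5, Hsp90b1, Calr, Creld2 and Xbp1), and of the 7 that rose, 4. Pdia4, which also rose, had no match. Capitals mark the matches, spacer included. The stretches are chr3:38452953-38453011 (plus strand) for Hspa5, chr19:40213117-40213173 (plus strand) for Calr and chr7:23012327-23012489 (minus strand) for Hsp90b1. A match is not a bound site.
Hspa5: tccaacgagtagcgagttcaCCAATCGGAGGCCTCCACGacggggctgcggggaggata
Calr: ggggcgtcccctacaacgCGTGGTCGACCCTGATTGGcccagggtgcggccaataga
Hsp90b1: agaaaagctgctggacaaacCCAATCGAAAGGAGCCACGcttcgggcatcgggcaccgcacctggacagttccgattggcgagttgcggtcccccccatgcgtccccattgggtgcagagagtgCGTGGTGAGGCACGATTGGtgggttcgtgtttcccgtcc

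Of 19 measured cholesterol synthesis genes, 6 rose and 0 fell (7.66% and 5.87% of all probe sets did), with a median of 0.14 in stimulated and -0.0059 in sham rats. Cyp51, the lanosterol demethylase, measured 8.98, 8.69, 9.11, 9.06 and 9.32 in stimulated rats at 30 d, against 8.67, 8.47, 8.68, 8.57 and 8.75 at 7 d. It overlapped slightly and rose by 0.40 ± 0.09 (adjusted p = 0.00803), against -0.02 in sham rats (unadjusted p = 0.783), with an unadjusted p = 0.00196 for the difference. Cyp51 differed from sham rats by 0.08 (adjusted p = 0.822) at 30 d, and at 7 d by -0.35 (adjusted p = 0.015). Insig1, a regulator of sterol sensing in the ER, measured 8.14, 7.90, 8.33, 8.21 and 8.55 in stimulated rats at 30 d, against 8.03, 7.70, 7.94, 7.48 and 7.14 at 7 d, and rose by 0.57 (adjusted p = 0.0131), against 0.19 in sham rats (unadjusted p = 0.19). Fdft1, squalene synthase (0.49, sham 0.29, unadjusted p = 0.0247), and Nsdhl, a sterol dehydrogenase (0.49, sham 0.26, unadjusted p = 0.0893, 7 lost calls), rose too. An exact form of the sterol response element, TCAC and CCAC separated by 1 base and read on both strands, was found in 0 of 15 measured members with a promoter, 5 of which rose, and in 0.976% of all promoters. Variants of this string and sites outside the 250 bases before the start were not searched. Without the 2 arrays with low C1ql2 the list kept 1 rise and Insig1 changed by 0.36 (adjusted p = 0.0885). Without the 3 with high Wfs1 the list kept 0 rises. Of all 15800 probe sets, 155 and 36 rose in these fits.

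Glucocorticoid genes moved in both directions. Nr3c1, the glucocorticoid receptor, measured 8.13, 7.87, 8.12, 8.03 and 8.04 in stimulated rats at 30 d, against 7.75, 7.57, 7.78, 7.42 and 7.27 at 7 d. It rose by 0.48 ± 0.08 without overlap (adjusted p = 0.00336), against 0.11 in sham rats (unadjusted p = 0.199), with an unadjusted p = 0.00397 for the difference. It differed from sham rats by 0.02 (adjusted p = 0.964) at 30 d, and at 7 d by -0.35 (adjusted p = 0.00993). Of 17 genes of the glucocorticoid response, 6 fell and 1 rose (5.87% and 7.66% of all probe sets did), Mt1 among those that fell. Tsc22d3, a target of the receptor, measured 5.73, 5.79, 5.70, 5.65 and 5.77 in stimulated rats at 30 d, against 6.05, 5.94, 5.93, 6.18 and 6.10 at 7 d. It changed by -0.31 without overlap (adjusted p = 0.00611), against -0.21 in sham rats (unadjusted p = 0.00217), with an unadjusted p = 0.261 for the difference. Per1, a clock gene that is also a target of the receptor, fell (-0.28, sham -0.24, unadjusted p = 0.00157). Bhlhe41, a clock repressor, measured 7.86, 7.77, 7.63, 7.62 and 7.98 in stimulated rats at 30 d, against 8.10, 8.19, 8.18, 8.22 and 8.58 at 7 d. It changed by -0.48 (adjusted p = 0.009), against -0.16 in sham rats (unadjusted p = 0.144), with an unadjusted p = 0.0393 for the difference. Of 14 circadian clock genes, 3 fell and 1 rose. The hour of killing is not given in the sources used here.

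Some GABA-A receptor subunits rose, with sham changes of the same sign. Gabra4, a subunit of extrasynaptic GABA-A receptors in granule cells, measured 9.58, 9.37, 9.57, 9.50 and 9.51 in stimulated rats at 30 d, against 9.34, 8.76, 9.002, 8.67 and 8.52 at 7 d. It rose by 0.65 ± 0.14 without overlap (adjusted p = 0.01), against 0.36 in sham rats (unadjusted p = 0.0212), with an unadjusted p = 0.171 for the difference. Gabra3 measured 9.16, 9.47, 9.78, 9.59 and 9.16 in stimulated rats at 30 d, against 8.89, 8.52, 8.67, 8.35 and 7.85 at 7 d, and sham rats were spread from 7.59 to 9.18 at 7 d. It rose by 0.98 ± 0.23 without overlap (adjusted p = 0.0123), against 0.59 in sham rats (unadjusted p = 0.019). With Gabra2 (0.37, sham 0.27, unadjusted p = 0.00407), 3 of 17 GABA-A and GABA-B receptor genes rose and 0 fell, beside 7.66% and 5.87% of all probe sets. The median of the list was 0.11 in stimulated and 0.10 in sham rats, and 0.03 in stimulated rats with the axis score as a covariate.

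Of 29 glutamate receptor genes, 6 rose and 3 fell, beside 7.66% and 5.87% of all probe sets. Gria4, an AMPA receptor subunit, measured 8.60, 8.40, 8.58, 8.65 and 8.68 in stimulated rats at 30 d, against 8.29, 8.02, 8.21, 8.01 and 7.73 at 7 d. It rose by 0.53 ± 0.10 without overlap (adjusted p = 0.00425), against 0.28 in sham rats (unadjusted p = 0.00794). Grin2b, an NMDA receptor subunit, measured 10.13, 9.95, 10.001, 10.02 and 10.12 in stimulated rats at 30 d, against 9.86, 9.68, 9.81, 9.69 and 9.54 at 7 d. It rose by 0.32 ± 0.06 without overlap (adjusted p = 0.00655), against 0.07 in sham rats (unadjusted p = 0.29), with an unadjusted p = 0.0111 for the difference. Cacng3, an AMPA receptor auxiliary subunit, rose (0.49, sham 0.23, unadjusted p = 0.0512), and Grin2d, another NMDA receptor subunit, fell (-0.35, sham -0.11, unadjusted p = 0.171). Glra2, a glycine receptor subunit, measured 7.01, 6.27, 6.86, 6.40 and 6.29 in stimulated rats at 30 d, against 6.05, 5.604, 5.69, 5.65 and 4.85 at 7 d. It rose by 0.998 ± 0.22 without overlap (adjusted p = 0.00908), against 0.12 in sham rats (unadjusted p = 0.594), with an unadjusted p = 0.00911 for the difference.

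Ion channel lists held calls in both directions, at shares to be read beside the 7.66% of all probe sets that rose and the 5.87% that fell. Of 37 potassium channel genes, 5 rose and 3 fell. Kcnip3 (0.55, sham 0.33, unadjusted p = 0.0309, 2 lost calls) and Kcnip4 (0.47, sham 0.36, unadjusted p = 0.00781, 2 lost calls), which bind Kv4 channels, and Kcnb2, a delayed rectifier (0.29, sham 0.11, unadjusted p = 0.0615), rose, and Kcnh2, an ERG channel (-0.34, sham -0.05, unadjusted p = 0.629, 5 lost calls), fell. Of 28 sodium, calcium and HCN channel genes, 3 rose and 4 fell, including Scn1a (0.32, sham 0.18, unadjusted p = 0.0651, 7 lost calls) and the auxiliary subunit Scn2b (-0.40, sham -0.28, unadjusted p = 0.00892). Of 33 synaptic vesicle genes 2 rose and 1 fell. In these 3 lists 0 genes passed with the axis score as a covariate, with which 26 of all 15800 probe sets (0.165%) did.

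**Figure D4:**
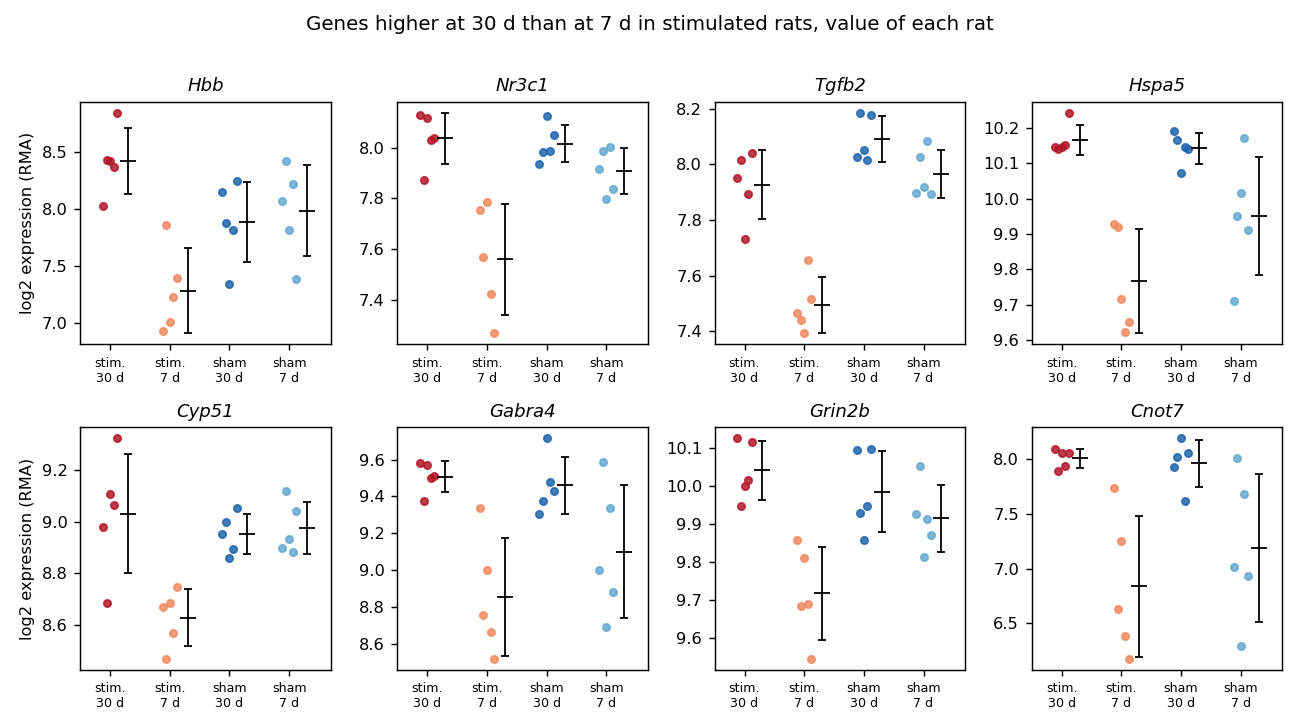
Log2 expression of 8 genes that were higher at 30 d than at 7 d in stimulated rats, with a point for each rat and, beside the points, a bar for the mean and SD (n = 5 per group), stimulated groups left of sham groups. Hbb and Cyp51 have sham changes near 0 (-0.10 and -0.02), whereas Gabra4 and Cnot7 were also lower on average in sham rats at 7 d than in sham rats at 30 d.

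Of 14 homeostatic astrocyte genes, 4 rose and 0 fell, beside 7.66% and 5.87% of all probe sets. Gja1, connexin 43, measured 9.92, 9.80, 9.79, 9.57 and 9.99 in stimulated rats at 30 d, against 9.45, 9.29, 9.72, 9.43 and 9.36 at 7 d. It overlapped and rose by 0.36 (adjusted p = 0.0137), against 0.05 in sham rats (unadjusted p = 0.599), with an unadjusted p = 0.0201 for the difference. Gjb6, connexin 30 (0.57, sham 0.26, unadjusted p = 0.0472), Slc1a3, a glutamate transporter (0.30, sham 0.19, unadjusted p = 0.0412, 6 lost calls), and Aldoc, a glycolytic aldolase (0.23, sham 0.02, unadjusted p = 0.805, 8 lost calls), were the other calls. Of 23 reactive astrocyte genes, 2 rose and 2 fell. Tm4sf1, a tetraspan membrane protein, measured 6.70, 6.78, 6.72, 6.69 and 6.77 in stimulated rats at 30 d, against 6.22, 6.06, 6.16, 5.63 and 5.72 at 7 d. It rose by 0.77 ± 0.11 without overlap (adjusted p = 0.00103), against 0.38 in sham rats (unadjusted p = 0.00189), with an unadjusted p = 0.0188 for the difference. Srgn, a proteoglycan core protein, rose (0.51, sham 0.31, unadjusted p = 0.0345, 3 lost calls), and S100a10, a partner of annexin A2 (-0.68, sham -0.13, unadjusted p = 0.5, 4 lost calls), and Osmr, the oncostatin M receptor (-0.26, sham 0.05, unadjusted p = 0.529, 8 lost calls), fell.

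Among survival and growth signals, Bcl2, an inhibitor of apoptosis, measured 6.27, 6.53, 6.67, 6.52 and 6.61 in stimulated rats at 30 d, against 6.06, 5.40, 5.89, 5.19 and 5.28 at 7 d. It rose by 0.96 ± 0.15 without overlap (adjusted p = 0.00207), against 0.48 in sham rats (unadjusted p = 0.00466), with an unadjusted p = 0.0404 for the difference. Tgfb2, transforming growth factor beta 2, measured 7.95, 8.01, 7.73, 7.89 and 8.04 in stimulated rats at 30 d, against 7.47, 7.44, 7.39, 7.66 and 7.51 at 7 d. It rose by 0.43 ± 0.06 without overlap (adjusted p = 0.00152), against 0.13 in sham rats (unadjusted p = 0.0589), with an unadjusted p = 0.0029 for the difference. Tgfb2 was the 1 called gene of 24 cytokines, chemokines and receptors, and differed from sham rats by -0.16 (adjusted p = 0.269) at 30 d, and at 7 d by -0.47 (adjusted p = 0.000142). Bcl2 and Tgfb2 kept their call with the axis score as a covariate (adjusted p = 0.0345 and 0.0218). Of 26 neurotrophic and growth factor genes, 2 fell and 0 rose (5.87% and 7.66% of all probe sets did), namely Igfbp2, an IGF binding protein (-0.50, sham -0.28, unadjusted p = 0.0205), and Met, the HGF receptor (-0.24, sham 0.01, unadjusted p = 0.891, 6 lost calls). Met lay at the background of 3.69 in some sham rats and some stimulated rats at 30 d, so its changes are compressed.

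The other large rises had sham changes of the same sign. Cnot7, a subunit of the CCR4-NOT deadenylase, measured 8.09, 7.89, 8.05, 7.94 and 8.05 in stimulated rats at 30 d, against 7.74, 6.64, 7.25, 6.39 and 6.18 at 7 d, whereas sham rats lay at 7.62 to 8.19 at 30 d and 6.29 to 8.01 at 7 d. It rose by 1.17 ± 0.27 without overlap (adjusted p = 0.0109), against 0.77 in sham rats (unadjusted p = 0.00826), with an unadjusted p = 0.309 for the difference. The other probe set of Cnot7 changed by 0.94 in stimulated rats. Sp1, a general transcription factor (1.12, sham 0.51, unadjusted p = 0.0316), Clxn (1.11, sham 0.79, unadjusted p = 0.00968, 1 lost call), and the noncoding RNA Vof16 (1.09, sham 0.53, unadjusted p = 0.0104) rose without overlap. So did Tmem47, a junction protein (1.08, sham 0.50, unadjusted p = 0.0338), Lrp1b, an LDL receptor relative (1.04, sham 0.53, unadjusted p = 0.0416), Eef1akmt2, a methyltransferase (1.02, sham 0.58, unadjusted p = 0.011), and Tspan12, a tetraspanin (0.97, sham 0.59, unadjusted p = 0.00823). The unadjusted p for the difference was between 0.051 and 0.435 in these 7.

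The 5 largest increases in sham rats were those of Pld5 (1.21), Car3 (1.18), Htra4 (0.90), Clxn and Cnot7, and the 5 largest decreases those of Ldha (-1.95), both Mt1 probe sets, Sf3b5 and Rpl24. Car3, Htra4 and Ldha were not called in stimulated rats (-0.27, 0.33 and -1.34, adjusted p = 0.835, 0.635 and 0.367). In these genes single sham rats lay at another level. Ldha measured 5.15, 9.58, 4.45, 9.58 and 10.12 in sham rats at 30 d, against 9.39 to 10.18 at 7 d. Car3 measured 4.62, 7.24, 7.88, 4.53 and 4.56 at 30 d, against 4.45 to 4.67 at 7 d. Htra4 measured 7.51, 5.18, 7.13, 7.84 and 7.31 in sham rats at 7 d. In stimulated rats at 30 d, Ldha was 4.90 in rat 4 and 9.12 to 10.03 in the others. Pld5, a phospholipase D family member, measured 6.82, 6.42, 6.58, 4.59 and 6.71 in stimulated rats at 30 d, against 4.61, 4.60, 4.62, 4.77 and 4.07 at 7 d. Sham rats measured 4.86, 6.51, 6.91, 4.88 and 6.70 at 30 d and 4.48 to 4.999 at 7 d. At 30 d its values fell into a high and a low level in both treatments, and it rose by 1.69 ± 0.39 in stimulated rats (adjusted p = 0.0112), against 1.21 in sham rats (unadjusted p = 0.00508).

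Calls in the remaining lists were as follows, to be read beside the shares over all probe sets. Of 18 mature granule cell genes 1 rose and 1 fell, of 12 mossy cell genes 1 fell, and of 18 CA1 and CA3 genes 1 rose. Of 19 oligodendrocyte genes 2 rose and 1 fell, and of 10 precursor genes 1 fell. Of 19 endothelium and pericyte genes 4 rose and 1 fell, of 16 meningeal and fibroblast genes 1 rose and 1 fell, and of 7 choroid plexus genes 1 rose. Of 10 T cell genes 0 were called, of 24 immediate early genes 1 rose (Nr4a2, 0.53, sham 0.16, unadjusted p = 0.242, 2 lost calls), and of 30 oxidative phosphorylation genes 3 rose. Over all probe sets 7.66% rose and 5.87% fell.

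**Figure D5:**
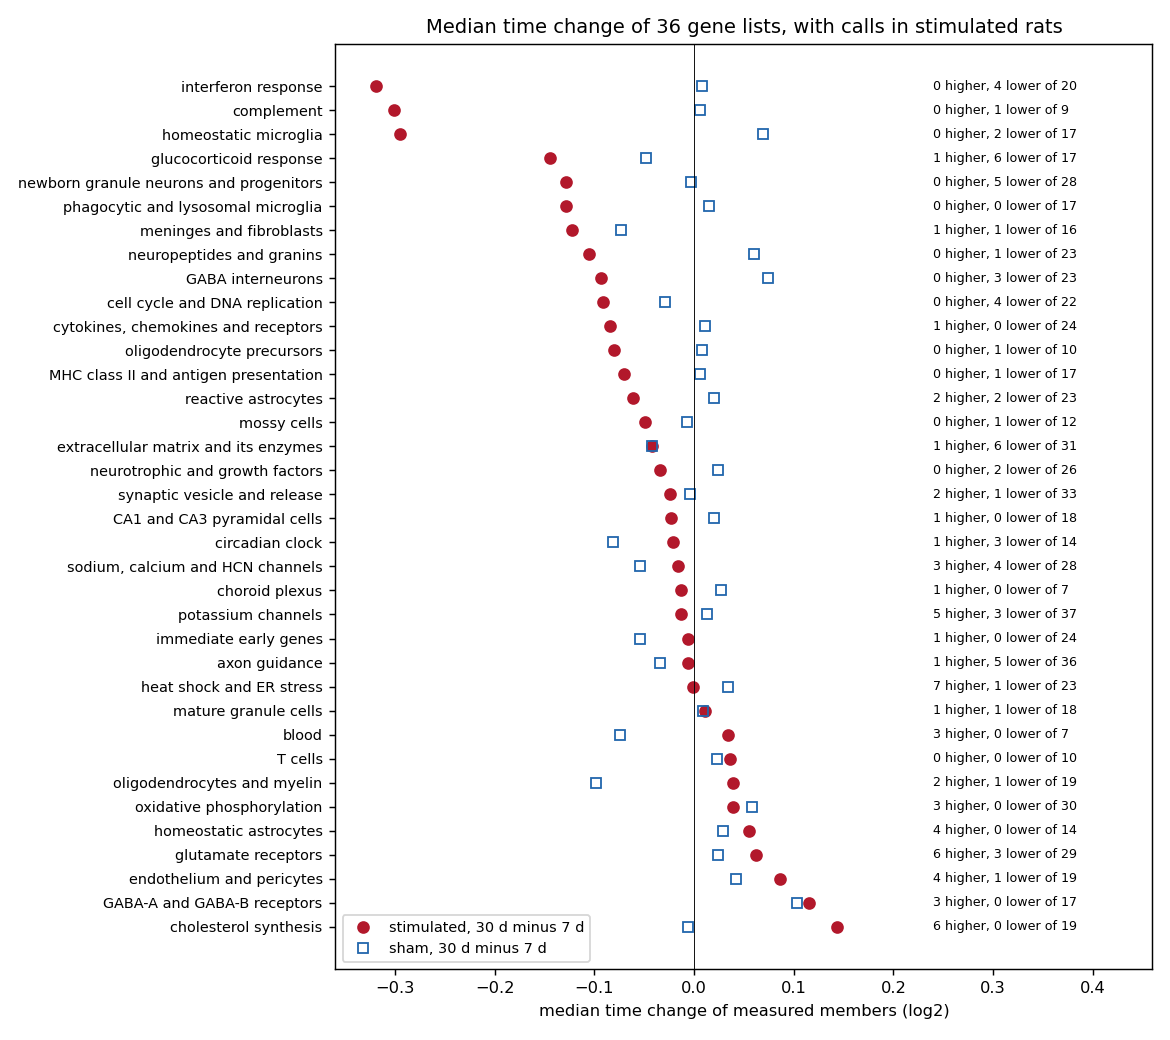
Median 30 d minus 7 d change (log2) of the measured members of 36 gene lists in stimulated rats (red circles) and in sham rats (open blue squares), with the number of members called in stimulated rats at the right. The interferon, complement and homeostatic microglia lists lie lowest in stimulated rats (-0.32, -0.30 and -0.30), with sham medians of 0.0081, 0.0055 and 0.07.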

How the data were processed

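One array was measured per rat. The authors extracted total RNA, hybridised it to Affymetrix whole-transcript rat gene arrays and deposited log2 values after RMA in the oligo package (version 1.22.0, per the labels). The array values were used by gene, without coordinates, and promoter sequences came from RefSeq (build GRCr8). Of 29214 probe sets, 18644 had a single gene symbol, 962 several and 9608 none in the platform annotation. Symbols were updated through Entrez IDs. Following the study's methods, low values were raised to a background, here the 20th percentile of all values (3.69) because antigenomic probes were not used here, and probe sets at background on more than 5 arrays were left out, which kept 15800. One limma model (version 3.58.1, R 4.3.3) of the 4 groups replaced the one-way ANOVA of the methods, with Benjamini-Hochberg adjustment over all probe sets. Its contrasts were stimulated 30 d minus 7 d, sham 30 d minus 7 d, their difference, and stimulated minus sham at each time. Standard errors come from this model. Precision is limited by 5 arrays per group, and array medians ranged from 5.22 to 5.31.

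Named genes were the 12 largest increases and 12 largest decreases among called probe sets whose groups did not overlap, up to 4 members with the smallest p of each of 36 lists, the 5 largest sham changes each way and the 6 smallest p of the difference. The members and lists were chosen with earlier results of these data known. Other genes are said to be chosen after their values were seen. A gene with several probe sets was represented in lists by the one with the highest mean. Replicate numbers are names of separate rats and pair nothing in the labels. The procedure was also run on simulated data with independent noise in each probe set. These lack variation shared between probe sets, such as the axis above, so they do not test the calls against it.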

Additional observations from a re-analysis of the deposited data

Results flagged for a closer look

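In 13 of 156 groups of 5 rats, over the 39 genes given rat by rat in the results, 1 rat lay farther from its neighbours than Dixon's test allows at 5%, where chance flags about 1 group in 20. Another 5 genes (Npas4, Junb, Egr1, Fos and Arc) were picked because 1 rat stood apart in them, so their flags are given as values only.

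Rat 5 of the stimulated 7 d group was the high point of Fcrl2 (8.40), C1qc (8.005), Irf8 (7.49) and Bhlhe41 (8.58) and the low point of Pld5 (4.07), and it is 1 of the 2 arrays with low C1ql2. Rat 2 of the stimulated 30 d group was the high point of Junb (7.79), Egr1 (9.60), Fos (5.89) and Arc (7.26). In the stimulated 30 d group, Hspa5 was highest in rat 5 (10.24) and Pld5 lowest in rat 4 (4.59). In sham rats at 30 d, rat 3 stood high for Bhlhe41 (7.87) and Anxa7 (6.80), rat 5 for Glra2 (7.19) and Arc (6.96), and rat 1 low for Hmgb2 (6.49). Rat 3 of the sham 7 d group was low for Fcrl2 (4.81) and high for Gadd45a (4.75).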

How the results depend on the processing

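For stimulated rats at 30 d against 7 d, the count of 2138 stayed within 1.5 times under the filters on low values, the other background percentiles, quantile normalization, centred medians, trend and robust moderation, array weights, unmoderated statistics, a fit of the 10 stimulated arrays alone and probe set means (1462 to 3169). Leaving out 1 stimulated array at a time gave 876 to 3068. A further 3 alternatives were added after seeing the data, namely the axis score as a covariate (26), no arrays with low C1ql2 (342) and no arrays with high Wfs1 (72). In sham rats the count of 0 became 1394 with array weights and 0 to 1 with 1 array left out, and for the difference between the time changes it became 2 with array weights and 0 to 1 with 1 array left out. With the replicate number as a block, 1624 probe sets passed in stimulated rats, 0 in sham rats and 0 for the difference. Correlations of the deviations of same-numbered stimulated rats ran from 0.02 to 0.20, so the numbers were not taken as pairing. Of the 39 genes given rat by rat, under the planned settings with all arrays, Irf8 and Penk missed the threshold without a filter (adjusted p = 0.0762 and 0.0612) and with unmoderated statistics (0.074 and 0.0601), and P2ry12 passed with array weights (0.0279). Calls were lost for 27 of the 39 genes with the axis score, for 10 without the arrays with low C1ql2 and for 25 without those with high Wfs1, with changes still within 1.5 times in 16, 8 and 25. Leaving out 1 array at a time ended a call in 11 of 390 values of these genes and gave one in 2. None of the 39 turned its sign under any alternative run. The number of arrays limits what can be called, and values near background are compressed.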

Other observations

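Immediate early genes, which neurons switch on within minutes of strong activity, set 1 rat apart. The mean level of 24 measured genes was 6.61 in rat 2 of the stimulated 30 d group, against 6.03 to 6.12 in the other 4, 6.13 to 6.17 in stimulated rats at 7 d, 6.10 to 6.15 in sham rats at 30 d and 6.12 to 6.30 in sham rats at 7 d. Npas4, an activity-dependent transcription factor, measured 6.93 in that rat and 4.53, 4.63, 5.67 and 4.61 in the others. Junb measured 7.79 against 6.01, 6.03, 6.07 and 6.10, and Egr1 9.60 against 8.08, 8.08, 8.27 and 8.43. Fos measured 5.89 against 4.76, 4.64, 4.47 and 4.46, and Arc 7.26 against 6.22, 6.28, 6.30 and 6.35. These 5 genes were chosen after their values were seen.

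Cd3e, a T cell receptor subunit, measured 5.22 in rat 5 of the stimulated 30 d group and 3.77 to 3.87 in the other 4, with 3.76 to 4.03 in stimulated rats at 7 d, 3.78 to 4.02 in sham rats at 30 d and 3.79 to 3.93 in sham rats at 7 d. Other T cell genes did not follow in that rat. Lck (4.05) and Gzmb (4.98) were the lowest of its group, and Cd8a (4.56) lay within it. The mean level of the 10 measured T cell genes was 4.55 in that rat, within the 4.33 to 4.64 of its group.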
